A study of Homo sapiens with 12 samples.

Results

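The protein 4.1 family comprises 7 genes, EPB41, EPB41L1, EPB41L2, EPB41L3, EPB41L4A, EPB41L4B and EPB41L5, of the 20056 protein-coding genes on which ac4C peaks were placed. The genes were chosen by name, with the many peaks of EPB41L1 already known. A peak was counted for a gene when its midpoint lay within the span of that gene in GRCh38, on the strand of the gene. N4-acetylcytidine (ac4C) is an acetylated form of cytidine in RNA, and NAT10 is the acetyltransferase that writes it. In acetylated RNA immunoprecipitation sequencing (acRIP-seq), fragmented RNA is pulled down with an antibody against ac4C and sequenced, so that enriched stretches of RNA are listed as peaks. The libraries came from SW620, a human colorectal cancer cell line, and fell into 3 shControl libraries with the genotype label WT and 3 shNAT10 libraries with the genotype label NAT10 knockdown. The methods describe stable lines made with lentiviral shRNA, so a control hairpin was present in the control cells, and they list more than 1 shRNA against NAT10 without naming the one used here. Nothing in the labels says that the libraries came from separate cultures, so each p-value measures the spread between these libraries, which may be technical. Input libraries were not used here, and therefore less acetylation of an RNA and less of that RNA cannot be told apart.

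Protein 4.1 proteins link the cell membrane to the cytoskeleton beneath it. All members carry a FERM domain, which binds the cytoplasmic tails of membrane proteins. EPB41, EPB41L1, EPB41L2 and EPB41L3 add a domain that binds spectrin and actin, and EPB41 itself was first known as the protein that holds spectrin and actin together in the red cell membrane. EPB41L4A, EPB41L4B and EPB41L5 lack that domain. EPB41L5 acts in epithelial polarity with the Crumbs proteins, and EPB41L3 is known for its loss in several carcinomas. EPB41L1 was also among the genes that the study drew from its own data sets, so its peaks are not an independent choice.

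Peaks were found in 6 of the 7 members, and 4 of them (EPB41, EPB41L1, EPB41L2 and EPB41L4B) had a peak in each of the 6 libraries. EPB41L1 and EPB41L2 together held 34 of the 48 regions formed by merging peaks that overlapped by at least 1 base on the same strand. The number of peaks in a member did not separate the control from the NAT10-knockdown libraries in any of the 6 members with a peak. One region, in EPB41L1, had a lower rank in each knockdown library than in each control library, although with 3 libraries against 3 the smallest p that the exact permutation test allows is 0.1.

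Peaks at annotated transcript starts are shown first. Of the 48 regions, 7, in 5 members, lay within 2 kb of the gene start, and several of them ran across an annotated transcript start. The share of all regions so placed is not given here, so this count is not read as a trait of the family. Each of the following windows covers 100 bases before to 30 bases after a RefSeq transcript start (GRCh38.p14, plus strand for EPB41 and EPB41L1, minus strand for EPB41L2, written 5′ to 3′), and capitals mark the bases that lay under a peak in at least 1 library. The EPB41 and EPB41L1 windows were under a peak in all 6 libraries, and the EPB41L2 window in 5. The peak region of the second EPB41 window lay 27.6 kb from the gene start.
EPB41, chr1:28887000-28887129: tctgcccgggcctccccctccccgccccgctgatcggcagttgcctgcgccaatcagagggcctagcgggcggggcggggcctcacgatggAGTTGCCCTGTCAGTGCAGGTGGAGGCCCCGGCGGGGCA
EPB41, chr1:28914469-28914598: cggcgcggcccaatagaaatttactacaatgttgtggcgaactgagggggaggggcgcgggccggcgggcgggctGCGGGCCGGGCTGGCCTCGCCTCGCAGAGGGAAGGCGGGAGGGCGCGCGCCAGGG
EPB41L1, chr20:36092610-36092739: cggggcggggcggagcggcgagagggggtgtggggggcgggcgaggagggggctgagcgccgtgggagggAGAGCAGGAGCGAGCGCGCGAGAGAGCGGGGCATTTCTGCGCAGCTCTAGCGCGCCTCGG
EPB41L2, chr6:131063216-131063345: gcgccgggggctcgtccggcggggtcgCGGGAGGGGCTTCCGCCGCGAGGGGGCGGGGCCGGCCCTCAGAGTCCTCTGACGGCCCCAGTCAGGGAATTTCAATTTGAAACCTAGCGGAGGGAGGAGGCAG
Of the 15 annotated start windows of 6 members, 6 were under a peak in any library, a share not given here for the windows of all genes. The remaining pair were a further EPB41L1 start at chr20:36154640-36154769, under a peak in knockdown library 2 only, and the EPB41L5 start at chr2:120012977-120013106, under a peak in control library 3 only. Cytidine made up 36.9% and 26.2% of the EPB41 windows, 21.5% of the EPB41L1 window and 28.5% of the EPB41L2 window, against a median of 28.5% over 35116 such windows of all genes. Guanine and cytosine together made up 74.6%, 73.8%, 77.7% and 72.3%, against a median of 60%. Among the member windows under no peak in any library, this share ranged from 40.8% to 78.5%. Because ac4C has been linked to CCG triplets and to repeats of C spaced by a pair of other bases, both were searched on both strands, and a match in the letters is a description and not a modified site. Matches were counted over the whole window, including the 100 bases before the start and bases outside a peak. CCG was present on the strand of the gene in each of the printed windows, 4, 2, 1 and 5 times in the order shown, and in 70% of all windows. The EPB41L1 match lay before the start and outside the capitals. Among the member windows under no peak in any library, CCG was present 0 to 8 times. The repeat CNNCNNCNNCNNCNN, which may overlap itself, was present on the strand of the gene 2 times in the first EPB41 window and not in the other windows shown, and in 30.5% of all windows. Those 2 matches also lay before the start and outside the capitals. On the other strand the printed windows held the repeat 1, 0, 6 and 5 times and CCG 7, 9, 7 and 8 times. Over all windows, 52.9% held the repeat and 78.4% held CCG on either strand. Among the member windows under no peak in any library, the repeat was present 0 to 6 times on the strand of the gene. The EPB41L1 window at chr20:36154640-36154769 had 10 CCG and 7 repeat matches on that strand, and the EPB41L5 window 5 and 0.

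Depth is unknown, since no read counts were given. There were 18241 to 22619 peaks per control library, and 28752, 17877 and 19047 per knockdown library, so knockdown library 1 stood apart. Each peak has a score of at least 50, and in every library between 7.61% and 13.7% of peaks share a score of 3100. The score served only as a rank, given here as the percentile of a peak among the scores of its own library, with ties at their mean rank. Of 8 markers of colorectal epithelium, 6 had a peak and 5 had one in each library, among them EPCAM and CDH1, while KRT18 and KRT20 had none. Of 6 markers of other cells, VIM had 1 peak in each library, COL1A1 had peaks in some, and PTPRC, CD3E, PECAM1 and COL1A2 had none. For NAT10 itself the control libraries had 1, 0 and 2 peaks and those with knockdown 2, 0 and 1, which does not measure the amount of its mRNA.

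**Figure D1:**
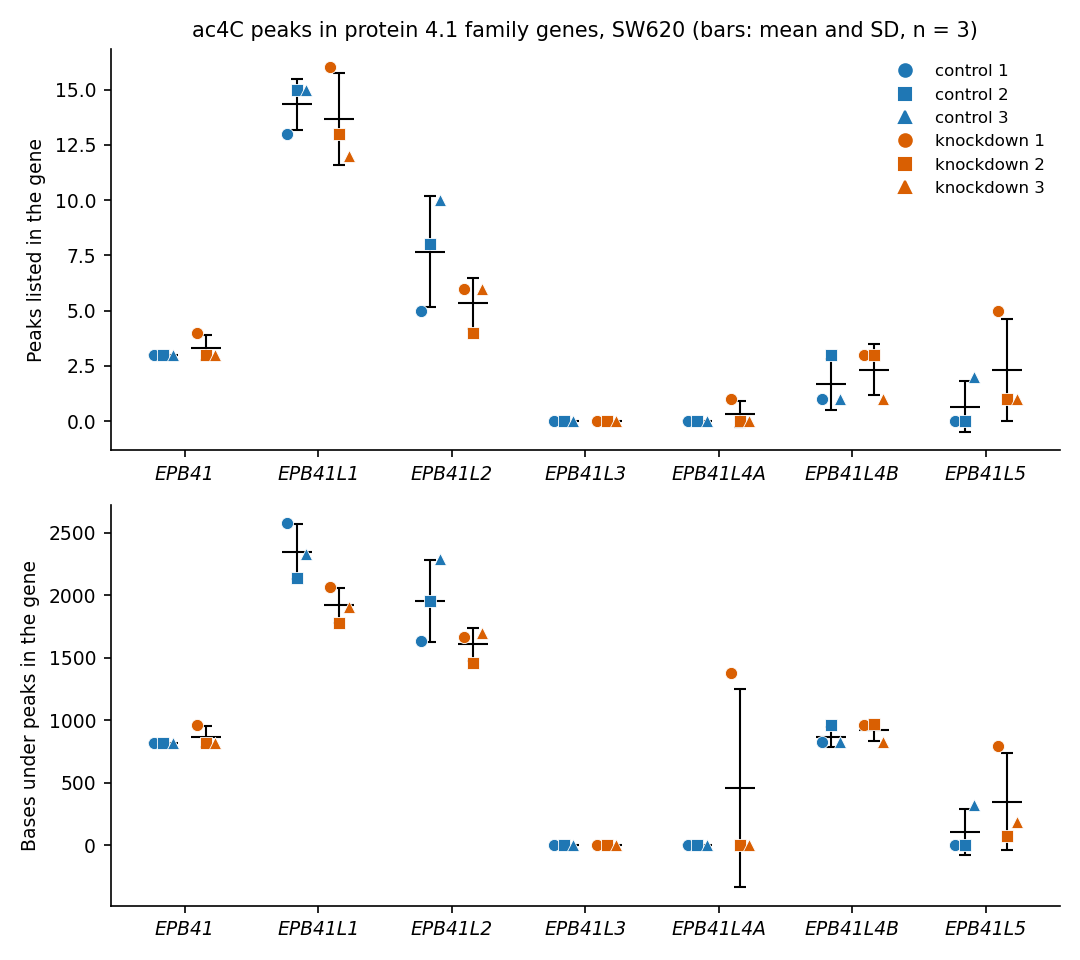
Number of ac4C peaks (upper panel) and of bases under peaks (lower panel) in each protein 4.1 family gene, 1 point per library in blue for control and orange for NAT10 knockdown, with bars for the mean and SD of 3 libraries. EPB41L1 stood at 12 to 16 peaks per library, EPB41L2 at 4 to 10 and all other members at 5 or fewer. No gene had its groups apart by number of peaks, and in the lower panel the groups of EPB41L1 stand apart.

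EPB41L1, which encodes the form of protein 4.1 best known from neurons, carried the most peaks of the family. It lies on the plus strand at chr20:36091414-36232799 and had 13, 15 and 15 peaks in the control libraries and 16, 13 and 12 in the knockdown libraries. The highest and the lowest of these values were both from knockdown libraries, and the groups overlapped. Mean numbers of 14.3 ± 1.15 and 13.7 ± 2.08 (SD, n = 3 each) differed by less than the libraries of either group did (exact permutation test, two-sided p = 0.9, Benjamini-Hochberg adjusted p = 1 over 12282 genes with a peak). Per length of the gene this was 10.1 peaks per 100 kb in control and 9.67 in knockdown, and the gene ranked 39 among all genes by its mean number of peaks. Since its many peaks were known when the family was chosen, this rank is not a separate result.

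EPB41L2, the broadly expressed form of the family, lies on the minus strand at chr6:130839347-131063245 and had 5, 8 and 10 peaks in the control and 6, 4 and 6 in the knockdown libraries. Control library 1 lay within the range of the knockdown libraries, and control libraries 2 and 3 lay above it. The means were 7.67 ± 2.52 and 5.33 ± 1.15 peaks (SD, n = 3 each), or 3.42 and 2.38 per 100 kb. The difference of -2.33 peaks was smaller in size than the SD in control and larger than that in knockdown (two-sided exact permutation test, p = 0.3, adjusted p = 1). Without control library 1 the groups no longer overlapped, and with the 50% highest scores the difference turned to 0.333 peaks.

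EPB41, the founding member, lies on the plus strand at chr1:28887100-29120041 and had 3 peaks in each control library and 4, 3 and 3 in the knockdown libraries. The only difference was 1 further peak in knockdown library 1, the longest list. EPB41L3, on the minus strand at chr18:5392386-5630663, was the one member in which no library listed a peak. An absent peak does not show whether the RNA was unmodified or too scarce to give one.

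Among the members without the spectrin and actin binding domain, EPB41L4B (minus strand, chr9:109171974-109321059) had 1, 3 and 1 peaks in control against 3, 3 and 1 in knockdown libraries. The groups covered the same range. EPB41L5 (plus strand, chr2:120013077-120179119) had 0, 0 and 2 peaks in control against 5, 1 and 1 in knockdown libraries, with means of 0.667 ± 1.15 and 2.33 ± 2.31 (SD, n = 3 each; two-sided exact permutation test, p = 0.5, adjusted p = 1). Control library 3 lay within the knockdown range, and without it each knockdown library had more peaks than each control library. EPB41L4A (minus strand, chr5:112141829-112419935) had a single peak of 1376 bases in knockdown library 1 and none elsewhere.

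Over the family, 22, 29 and 31 peaks were listed in the control and 35, 24 and 23 in the knockdown libraries. Per 10000 peaks of a library these were 12.1, 12.8 and 15.5 in control against 12.2, 13.4 and 12.1 in knockdown, so the high total of knockdown library 1 was no longer the highest once the lengths of the lists were taken into account. None of the 6 members with a peak had more peaks in each control than in each knockdown library, against 0.651% of the 12282 genes with a peak, and none had more in each knockdown library, against 1.57%.

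The bases of a gene under peaks gave a further view, since peaks differ in length. Of the EPB41L1 regions in 2 or more libraries, 16 of 17 had one start and one end. Its bases therefore changed mostly with which peaks were listed and not with their width. In EPB41L1, 2580, 2136 and 2334 bases lay under peaks in the control and 2068, 1783 and 1907 in the knockdown libraries. Each control library stood above each knockdown library, with means of 2350 ± 222 and 1920 ± 143 bases (SD, n = 3 each; two-sided exact permutation test, p = 0.1, which is the lowest possible, adjusted p = 1). Control library 1 owed 1000 of its bases to a single peak at chr20:36229332-36230331, which no other library listed and which stood at percentile 3.5 of its library. With peaks of 1000 bases or more left out, the difference changed from -431 to -97.3 bases and the groups overlapped (exact permutation test, p = 0.7).

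In EPB41L2, 1633, 1953 and 2289 bases in control against 1665, 1460 and 1703 in knockdown libraries lay under peaks, and control library 1 fell among the knockdown libraries (exact permutation test, p = 0.3). With the 50% highest scores this difference also turned, from -349 to 45.7 bases. EPB41 had 820 bases in 5 libraries and 966 in knockdown library 1. EPB41L4B had 824 to 963 bases in control and 824 to 972 in knockdown libraries, and EPB41L5 had 0 to 322 and 73 to 793. Thus 1 of the 6 members with a peak had more bases under peaks in each control library, against 1.91% of the genes with a peak, and none had more in each knockdown library, against 3.73%.

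**Figure D2:**
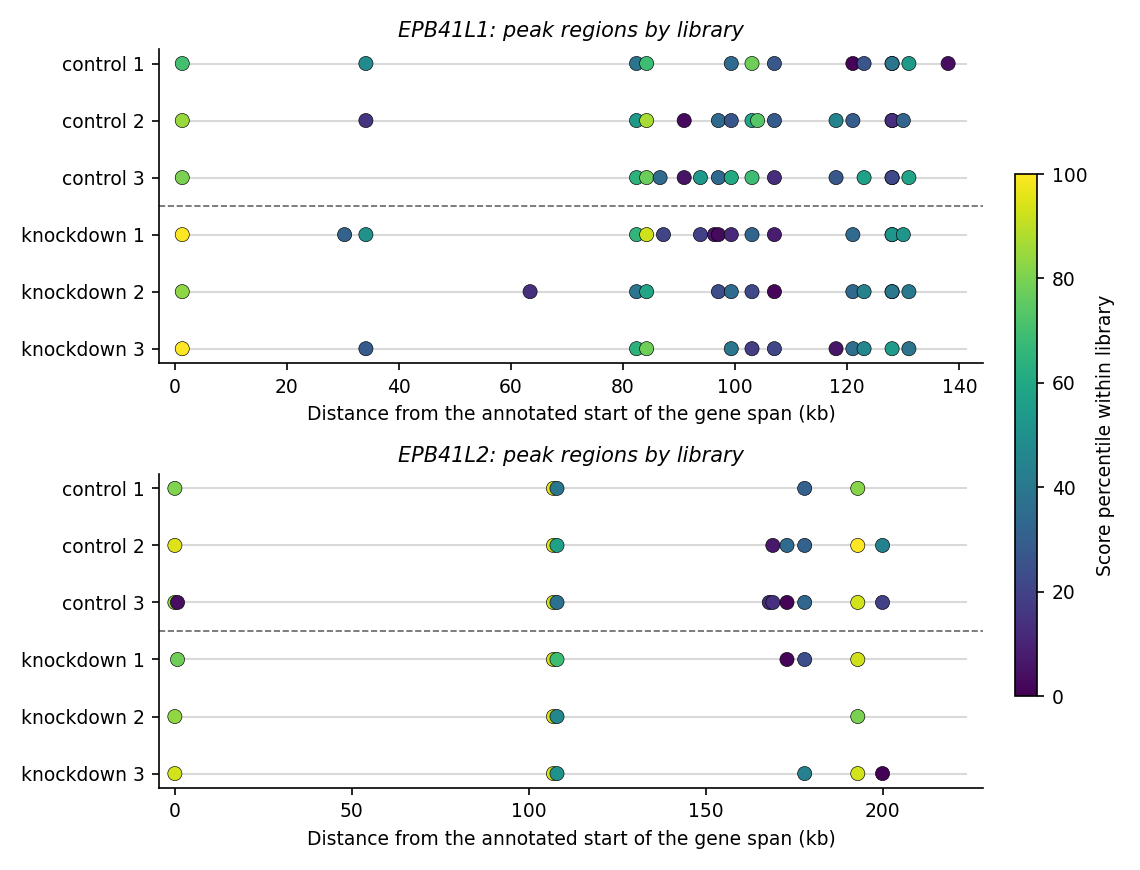
Positions of the merged regions of EPB41L1 and EPB41L2 as distance from the gene start in kb (x axis), 1 row per library, with the colour of a point giving its score percentile within the library. The EPB41L1 regions crowd into the distal part of the gene, and regions present in all 6 libraries stand as columns of 6 points.

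The regions were unevenly placed along the genes. EPB41L1 held 24 of them, and 20 of these lay more than 80 kb from the gene start in a gene of 141386 bases. EPB41L2 held 10, EPB41L5 6, EPB41 4, EPB41L4B 3 and EPB41L4A 1. No exon annotation was used, so whether a region is coding, untranslated or intronic is not given. The median length of the 164 family peaks was 165 bases, from 16 to 1376, against 210 for all peaks. The peak in the EPB41L1 start at chr20:36154742-36154896, found in knockdown library 2 only, lies opposite the antisense gene EPB41L1-AS1. How the strand of a peak was obtained is not given in the sources used here, so for that peak the gene and its antisense partner cannot be told apart. The non-coding gene LOC124904892, on the opposite strand, covers part of the distal cluster, and the same limit holds there.

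Peaks were found in all 6 libraries in 14 of the 48 family regions (29.2%), against 22% of all 41755 regions. Of these, 7 were in EPB41L1, 3 in EPB41, 3 in EPB41L2 and 1 in EPB41L4B. In 13 of the 14 the start and end were identical in each library that listed the peak. Among family regions in 2 or more libraries, 25 of 34 (73.5%) had one start and one end, against 60.6% of all such regions, and EPB41L1 had 16 of 17. How the boundaries of peaks were set is not given in the sources used here, and why they were identical was not tested. 

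Another 14 family regions (29.2%) appeared in 1 library only, against 38.7% of all regions. Of these, 8 were in knockdown library 1, 3 in control library 3, 1 each in control libraries 1 and 2 and knockdown library 2, and none in knockdown library 3. Their median percentile was 20.5. The highest, at 73.7, was a peak of 36 bases in EPB41L1 in control library 2.

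No family region had peaks in all control and no knockdown libraries, against 0.340% of all regions, and none had peaks in all knockdown and no control libraries, against 0.819%. A weaker criterion, a difference of at least 2 libraries, was met by 2 regions on the control side (4.07% of all regions) and by 1 on the knockdown side (5.92%). On the control side were an EPB41L1 region at chr20:36182272-36182347, listed in control libraries 2 and 3 at percentiles 3.1 and 4.9, and an EPB41L2 region at chr6:130894344-130894441, listed in the same libraries at 6.4 and 13.9. On the knockdown side was an EPB41L5 region at chr2:120091555-120091627, listed in knockdown libraries 1 and 2 at 18.5 and 19.3. All were low in the ranking of their libraries.

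The ranks of the shared regions differed widely within each gene. The highest ranked region of EPB41, at chr1:28914544-28914768 across an internal transcript start, had a score of 3100 or more in each library. The same was true of an EPB41L2 region of 506 bases at chr6:130955994-130956499. The percentiles of these regions, 92.7 to 96.0, reflect only how many peaks of a library sit at that score, and no difference between the groups can be read from them. In EPB41L1 the highest ranked region, chr20:36092680-36092813, lay at an annotated transcript start, 1.33 kb from the gene start. The start of the gene span itself was under no peak. The percentiles of that region were 70.1, 84.5 and 80 in control against 99.9, 82.9 and 100 in knockdown libraries. Knockdown library 2 lay among the control libraries and the others above them, a mean difference of 16 percentile points (two-sided exact permutation test, p = 0.2, adjusted p = 0.672 over 9195 regions).

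The region at the EPB41 start, chr1:28887091-28887210, had percentiles of 25.6, 28.5 and 70.6 in control against 62.3, 62.8 and 58.8 in knockdown libraries. Control library 3 stood above all knockdown libraries while the other 2 control libraries stood far below, and the difference of 19.7 points was smaller than the spread in control (SD 25.2; exact permutation test, p = 0.4). In EPB41L4B the only shared region, chr9:109320141-109320964, lay near the gene start. Its percentiles were 68.7, 69.5 and 54.5 in control against 73.4, 64.1 and 55.4 in knockdown libraries, with means of 64.3 in both groups. The region at the EPB41L2 start, chr6:131063142-131063318, was missing from knockdown library 1 alone, and stood at 80.6 to 94.8 in the 3 control libraries and at 83.4 and 93.2 in knockdown libraries 2 and 3. Knockdown library 1 instead listed a neighbouring region at chr6:131062380-131062576 at percentile 77.8, where control library 3 had one at 3.9.

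**Figure D3:**
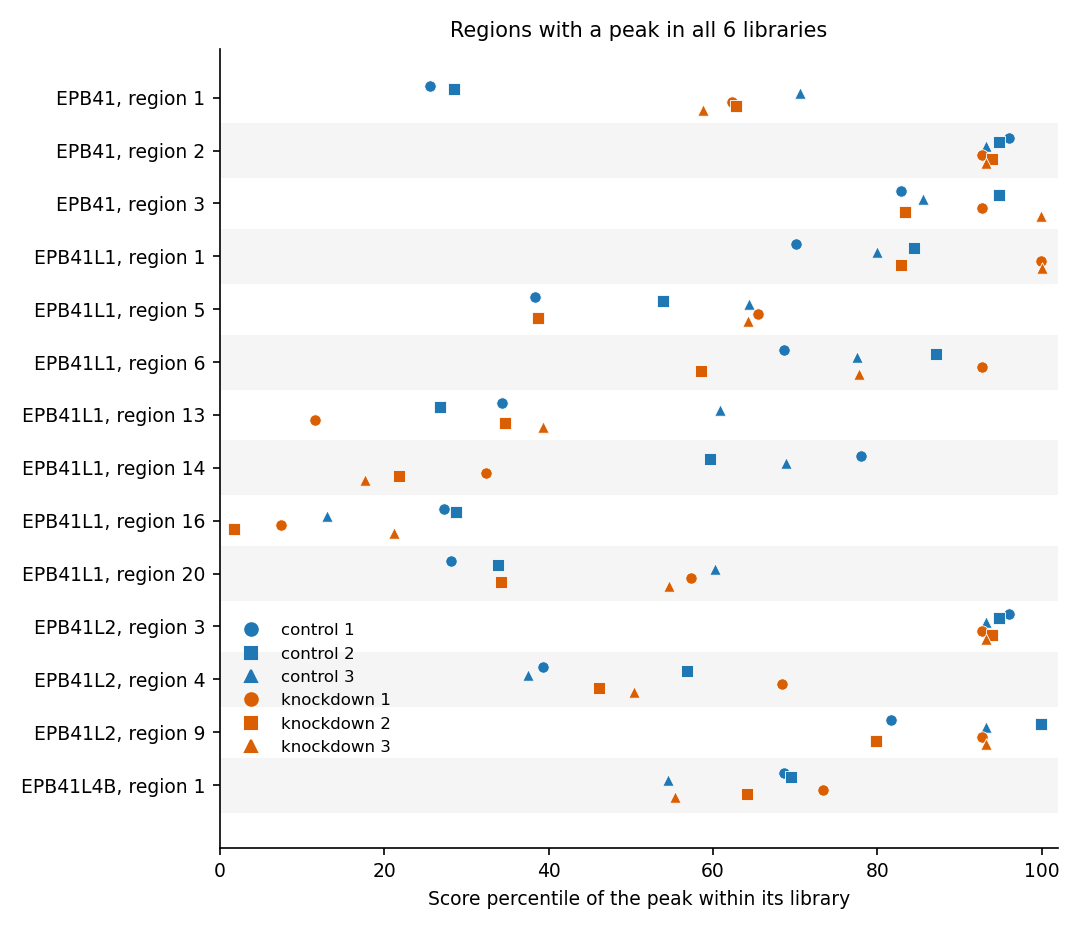
Score percentile within the library (x axis) of the 14 family regions with peaks in all 6 libraries (rows, numbered from the gene start), 1 point per library, blue for control and orange for NAT10 knockdown. Among these 14 the groups stand apart in region 14 of EPB41L1 alone, the one at chr20:36194212-36194360, at 59.7 to 78.0 in control and 17.7 to 32.4 in knockdown libraries.

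One shared region had ranks that did not overlap between the groups. It covers 149 bases at chr20:36194212-36194360, in the distal part of EPB41L1 and 103 kb from the gene start, and has the same start and end in each library. Its percentiles were 78.0, 59.7 and 68.9 in the control and 32.4, 21.8 and 17.7 in the knockdown libraries. The lowest control value was thus well above the highest knockdown value, with means of 68.9 ± 9.1 and 24.0 ± 7.6 (SD, n = 3 each) and a difference of -44.9 points (two-sided exact permutation test, p = 0.1, which is the lowest possible, adjusted p = 0.672 over 9195 regions). Of all 9195 regions shared by the 6 libraries, 6 (0.0653%) had a difference as low or lower. The region was singled out of the 14 by this separation, after adjustment it did not pass the test, and LOC124904892 lies opposite to it. With the 50% highest scores or lists of equal length the region was not in all 6 libraries and could not be called, and the number of family regions with separated ranks ran from 0 to 7 over the alternatives.

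Of the 14 shared family regions, 1 was therefore higher in each control library, against 4.13% of all shared regions, and none was higher in each knockdown library, against 6.96%. The mean percentile was lower in knockdown for 7 of the 14 and higher for 7. The median difference was -0.66 points, against 0.69 over all 9195, and single regions ranged from -44.9 to 19.7. The median was -2.72 with the 50% highest scores and turned to 2.13 with lists of equal length, 2.98 without control library 2 and 1.98 without knockdown library 2.

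In the other shared regions of EPB41L1 the ranks of the groups overlapped. The next shared region, chr20:36197859-36198041, had percentiles of 27.3, 28.8 and 13.0 in control against 7.5, 1.7 and 21.2 in knockdown libraries (difference -12.9, exact permutation test, p = 0.2), and knockdown library 3 lay within the control range. The shared region on the other side of it, chr20:36190622-36190797, had 34.3, 26.8 and 60.9 against 11.6, 34.7 and 39.3, with much overlap. Of the 7 shared regions of EPB41L1, 4 had a lower mean percentile in knockdown and 3 a higher one.

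The genes whose numbers of peaks over the 6 libraries were most like those of EPB41L1, each with a sum of absolute differences of 5 peaks, were JAKMIP3, LRP5 and SPTBN1. JAKMIP3 had 14, 17 and 14 peaks in control against 15, 13 and 12 in knockdown libraries. SPTBN1, a beta spectrin, had 14, 14 and 15 in control against 16, 14 and 14 in knockdown libraries.

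The genes of the spectrin membrane skeleton, to which protein 4.1 binds, were described from a list of 23, of which 17 had a peak and 9 had peaks in all 6 libraries. Of all 20056 protein-coding genes, 12282 and 5966 did. No gene of the list had more peaks in each control library and 1 had more in each knockdown library, against 0.651% and 1.57% of all genes. That gene was SPTAN1, which encodes the non-erythroid alpha spectrin, with 2, 3 and 4 peaks in control against 7, 5 and 5 in knockdown libraries (means 3.00 ± 1.00 and 5.67 ± 1.15, SD, n = 3 each; two-sided exact permutation test, p = 0.1, adjusted p = 1). When lists of equal length were taken by score, the SPTAN1 groups overlapped, with means of 2.33 and 3.33. The beta spectrin SPTBN5 had 14, 18 and 15 peaks in the control and 24, 16 and 17 in the knockdown libraries, with overlapping groups. The median difference over the genes with a peak was 0.333 peaks, against 0 over all genes, with a higher mean in knockdown for 11 genes and a lower one for 3. Over all genes with a peak these counts were 5479 and 3914. Per 10000 peaks of a library the list gave 10 higher and 7 lower, and all genes gave 5583 and 6699. In that setting 2 genes of the list had more in each knockdown library, against 426 of the 12282 genes with a peak. Without knockdown library 1 the list gave 5 and 6, and all genes gave 3507 and 6150.

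Of 30 other genes with a FERM domain, 26 had a peak and 14 had peaks in all 6 libraries, beside 12282 and 5966 of all 20056 genes. FARP1, a guanine nucleotide exchange factor with a FERM domain, was the 1 gene of the list with more peaks in each knockdown library, against 1.57% of all genes, and none had more in each control library, against 0.651%. FARP1 had 3, 2 and 4 peaks in control against 12, 6 and 5 in knockdown libraries (means 3.00 ± 1.00 and 7.67 ± 3.79, SD, n = 3 each; two-sided exact permutation test, p = 0.1, adjusted p = 1). The groups of FARP1 also stood apart without knockdown library 1, with a knockdown mean of 5.50. NF2, which encodes merlin, had 7, 6 and 9 peaks against 12, 6 and 6. Moesin (MSN) had 5 in each control library against 4, 5 and 7, and ezrin (EZR) had 3, 4 and 5 against 6, 6 and 5. The last 3 genes had overlapping groups. The list as a whole had a higher mean in knockdown for 17 genes and a lower one for 7, beside the 5479 and 3914 of all genes. The list gave 16 and 10 per 10000 peaks, where all genes gave 5583 and 6699, and 11 and 9 with lists of equal length, where all genes gave 4012 and 4301. It turned to 8 and 13 without knockdown library 1, and all genes turned to 3507 and 6150.

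Of 18 known binding partners of protein 4.1, 12 had a peak and 6 had peaks in all libraries, beside 12282 and 5966 of all 20056 genes. None had its groups apart, against 0.651% of all genes with a peak on the control and 1.57% on the knockdown side. Per 10000 peaks, and without knockdown library 2 or 3, 1 partner had more in each knockdown library. In these settings, in that order, 426, 533 and 413 of the 12282 genes with a peak did so. The mean was higher in knockdown for 9 and lower for none, beside the 5479 and 3914 of all genes. The counts were 9 and 3 per 10000 peaks, where all genes gave 5583 and 6699. They were 8 and 2 with lists of equal length, where all genes gave 4012 and 4301. Without knockdown library 1 they were 7 and 2, where all genes gave 3507 and 6150. NUMA1, a spindle pole protein, had 4, 4 and 6 peaks in control against 8, 6 and 4 in knockdown libraries. The adhesion molecule CADM4 had 3, 3 and 2 against 4, 3 and 3, and the scaffold kinase CASK had 2 in each control library against 4, 2 and 2.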

How the data were processed

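The data were acRIP-seq peak lists of 3 control and 3 NAT10-knockdown immunoprecipitation libraries, grouped by their labels. The authors called peaks per library, without pooling, with a caller that names peaks as MACS does, and the deposited score of each peak was used only as a rank within a library. The build was GRCh38 per the submitters' processing notes, and aligner, caller settings and strand assignment are not given in the sources used here. The 6 input libraries were not used here. Peaks were merged when they overlapped by at least 1 base on the same strand, and assigned by midpoint to protein-coding genes of RefSeq GRCh38.p14. Gene strand came from the RefSeq start windows or, for 4213 genes (EPB41L4B among them), from the strand of most peaks in the span, and 1829 of these had no such peak. Where both existed they gave the same strand for 96.7% of 10029 genes. Two-sided exact permutation tests were run over libraries and adjusted by Benjamini-Hochberg over all genes or shared regions.

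All 7 members were named. Of their regions, those with separated ranks, those differing by at least 2 libraries and the highest ranked shared one per gene were named, and others were given for context after their values were seen. From each other list at most 4 genes were named, those with separated groups first and then those with the most peaks, except for a few genes not reported here. The 3 genes most alike to EPB41L1 were taken in alphabetical order, with LRP5 given by name only. Members and lists were chosen with earlier results of these data known. Alternatives were to keep the top 50% of each list by score, to keep the top 17877 of each, counts per 10000 peaks, other rules of strand, overlap, gene assignment and ranking, a replicate block, and each library left out. Leaving out peaks of 1000 bases or more was added after seeing the data. The code was tested on simulated data. Python 3.11.15, numpy 2.4.6, pandas 2.3.3 and scipy 1.17.1 were used.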

Additional observations from a re-analysis of the deposited data

How the results depend on the processing

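Of 214 values under alternatives, 174 were rated the same, 34 moved and 6 turned sign, and none reached a p below 0.05, which 3 libraries against 3 cannot do. For the family counts and the median percentile difference, the same meant within a set limit. For single genes and regions it meant only that the sign was kept, whatever the size. The change from -431 to -97.3 bases in EPB41L1 was thus rated the same. The number of members whose peak numbers separated the groups was 0, and 0 to 1 with a library left out (1 without control library 1, EPB41L2, and 1 without control library 3, EPB41L5). The number of regions found in one group only was 0, against 1 with the 50% highest scores, 3 with a difference of at least 2 libraries, and 0 to 2 with a library left out (2 without control library 1 and 1 without knockdown library 3). Regions with separated ranks numbered 1, against 0 with the 50% highest scores, 2 with the same number of peaks per library, 2 with percentiles among shared peaks only, and 1 to 7 with a library left out, where 2 values against 3 separate more easily (2, 3 and 7 without control libraries 1, 2 and 3, and 4 and 3 without knockdown libraries 2 and 3). The median percentile difference of -0.66 became 2.13 with the same number of peaks per library, -2.72 with the 50% highest scores and -2.49 with percentiles among shared peaks only, and lay between -1.51 and 2.98 with a library left out. Members with separated bases numbered 1, against 0 with the 50% highest scores, 2 with the same number of peaks, 0 without long peaks, and 1 to 2 with a library left out (2 without control library 1 or 3). For EPB41L2 the difference turned to 0.333 peaks and 45.7 bases with the 50% highest scores, and for EPB41L1 to 0.167 peaks without knockdown library 3, against -1.83 without knockdown library 1. The -44.9 points of the EPB41L1 region at 103 kb became -42.60 with percentiles among shared peaks only, and ranged from -49.45 to -40.32 with a library left out. With the 50% highest scores or equal numbers of peaks that region did not stay in all 6 libraries. The cause of these changes was not tested beyond the fewer libraries or peaks in each.

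Between libraries of one number, the deviations from the group mean correlated at -0.178, -0.121 and -0.00372, and control library 1 correlated best with knockdown library 2 (0.175). No pairing by number was seen, but so few libraries cannot exclude one, and the labels state none. With the replicate number as a block (exact sign-flip permutation test, smallest p 0.25) the counts stayed at 0 members for peaks and 1 for bases, with -431 bases for EPB41L1 at p = 0.25. Depth is unknown, which limits any statement on absent peaks.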
